A study of Mus musculus with 12 samples.

Results

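The genes that encode the subunits of voltage-gated calcium and sodium channels were examined in somatosensory cortex of P7 mice. All gene symbols that begin with Cacna, Cacnb or Cacng, or with Scn and a digit, were taken, the estimated counts of their transcripts were summed per symbol, and symbols with a sum of at least 10 over the 12 libraries were kept. Of 24452 gene symbols in the files, 40 matched and all 40 were kept. They were 10 calcium channel alpha1 subunits, 4 alpha2delta, 4 beta and 8 gamma subunits, and 10 sodium channel alpha and 4 beta subunits. The lowest sums were 10 (Scn10a), 12 (Cacna1f) and 12 (Scn4a), and no matching symbol lay below the limit. After a filter on low counts, 37 of the 40 were tested among 14739 symbols, and Cacna1f, Scn4a and Scn10a were not.

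The mice were males on a C57BL/6 background on postnatal day 7. Their 4 groups of 3 libraries were WT mice given saline, WT mice given ethanol, p53 KO mice given saline and p53 KO mice given ethanol, each by intraperitoneal injection, with tissue taken 8 hours after the last injection. The p53 KO mice carry the targeted allele Trp53tm1Tyj in every cell and, like the WT mice, were offspring of crosses of heterozygotes. Stranded libraries of total RNA were sequenced from whole somatosensory cortex, and nothing in the labels pairs the libraries. By the paper's account, some of this cortex was cut out by laser and the remainder was punched from frozen brains. Which libraries came from either method is not stated, nor whether the first letter of a library name (L or P) marks it. A difference between these methods could therefore not be tested. The labels do not say that the libraries of a group came from separate mice, so a p-value measures only the spread between these libraries.

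The series set limits on every value below. The total estimated count ranged from 719735 to 17066392 per library, and the 2 libraries whose names begin with L (WT saline replicate 1 and KO ethanol replicate 1) were the shallowest. No 2 libraries were alike enough to be the same library, the highest correlation of log counts being 0.992. Trp53 was at 26.2, 3.67 and 14.4 normalized CPM (counts scaled to library size and composition) in WT saline, 14.8, 20.0 and 7.23 in WT ethanol, 11.7, 11.1 and 27.6 in KO saline, and 23.4, 28.1 and 28.7 in KO ethanol libraries, so the KO libraries were not lower. The targeted allele lacks only part of the gene and the counts cover whole transcripts, so this level does not check the KO labels, and groups are named here as labelled. The 6 neuronal markers summed to 6112 to 7242 CPM in WT saline, 3889 to 5508 in WT ethanol and 3657 to 7718 in KO libraries. Without Tubb3 (2823, 2858 and 4693 CPM in WT saline against 1313, 1136 and 1537 in WT ethanol), the other 5 overlapped between these groups, at 2549 to 3368 and 2576 to 3971 CPM. Of the 6, 1 was called higher and 1 lower with ethanol in WT mice, and the 8 markers of excitatory neurons summed to between 388 and 1358 CPM. The other lists, in CPM over all libraries, spanned 231 to 561 for 6 inhibitory neuron markers, 414 to 1879 for 5 astrocyte, 180 to 645 for 6 oligodendrocyte lineage, 50.4 to 161 for 5 microglia, 63.4 to 164 for 4 endothelium, 6.85 to 46.8 for 4 muscle and 3.12 to 18.3 for 4 peripheral sensory neuron markers. WT ethanol replicate 1 stood apart, with 471 CPM of Tcf7l2, a gene of thalamic neurons, against 1.03 to 29.2 in the others. The 3 thalamus markers spanned 27.1 to 552 CPM, and the 4 choroid plexus markers summed to 4995 CPM in that library, 2250 in KO saline replicate 1, 2209 in KO ethanol replicate 3 and 1.67 to 410 in the others.

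Voltage-gated calcium channels are built around a pore-forming alpha1 subunit, which sets the current type (L, P/Q, N, R or T), and auxiliary alpha2delta and beta subunits, which control how many channels reach the membrane and how they gate. Most gamma subunits expressed in brain act instead as partners of AMPA-type glutamate receptors (TARPs). Sodium channel alpha subunits carry the rising phase of the action potential, and the beta subunits modulate their gating and adhesion. In rodent cortex the first postnatal weeks are when the embryonic pattern of subunits gives way to the adult one.

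Per length, the most abundant members were auxiliary subunits. The median over the 12 libraries of the deposited RPKM (read counts scaled by library size and transcript length, summed per symbol) was 54.4 for Cacnb3, a calcium channel beta subunit, 51.6 for Scn3b, a sodium channel beta subunit, and 47.9 for Cacng7, a TARP. These RPKM also appear quantile normalized, so they are not a plain scaling of the counts. Also high were Cacna2d1 (26.3), Cacng3 (24.4) and Scn2a1 (22.3), the last of which encodes Nav1.2, the main axonal sodium channel of young excitatory neurons. Cacnb3 and Scn3b overlapped in their ranges over libraries, 22.0 to 98.6 RPKM for Cacnb3 and 33.1 to 85.2 RPKM for Scn3b. Among calcium channel alpha1 subunits, Cacna1a (P/Q-type) was at a median of 9.28 RPKM, Cacna1b (N-type) at 8.78, Cacna1g (T-type) at 8.75, Cacna1e (R-type) at 6.26, Cacna1h (T-type) at 5.07, Cacna1d (L-type) at 4.86, Cacna1i (T-type) at 4.76 and Cacna1c (L-type) at 3.88. Cacna1a was as low as 3.14 and as high as 18.1 RPKM in single libraries, a range that holds the medians of all the other 7.

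At the low end, several members best known from other tissues were near 0. Scn9a, also known from peripheral sensory neurons, was higher, at a median of 1.34 RPKM. Cacna1s, the alpha1 subunit of skeletal muscle, had a median of 0.125 RPKM, and Cacna2d4, known from retina, 0.155 RPKM. Scn11a, of peripheral sensory neurons, had 0.0523 RPKM. Cacna1f (retina) and Scn4a (skeletal muscle) had 12 counts each in all libraries together, and Scn10a (peripheral sensory neurons) had 10.

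With ethanol, 11 of the 37 members tested were higher in WT mice and none was lower at an adjusted p under 0.30, the level the study used (edgeR's quasi-likelihood F test, adjusted by Benjamini-Hochberg over all 14739 symbols). Over all symbols, 12.1% were called higher and 10.4% lower. Without TMM scaling, which shifted the median of all symbols to 0.49, 24.1% of all symbols were called higher and 3.42% lower. With edgeR none of the members passed at an adjusted p under 0.05, a level that 0.0746% of all symbols reached. An unadjusted p under 0.05 was found in 11 of the 37 members and in 2704 of all 14739 symbols. With DESeq2, 6 members passed at an adjusted p under 0.05. The share of all symbols that DESeq2 passed at that level is not given here, and edgeR's 0.0746% does not stand in for it. The median log2 fold change was 0.74 over the members and 0.06 over all symbols. In 11 members the 3 WT ethanol libraries all lay above the 3 WT saline libraries, as they did in 11.2% of all symbols. An exact permutation test of 3 libraries against 3 cannot go below p = 0.1, so these calls rest on the model fitted across all symbols. Among the members called were the alpha1 subunits Cacna1e and Cacna1s, the alpha2delta subunits Cacna2d2 and Cacna2d3, the beta subunit Cacnb2, the gamma subunit Cacng4, the sodium channel alpha subunits Scn1a, Scn7a and Scn9a and the sodium channel beta subunit Scn4b. None of the 3 T-type subunits was called. Bulk tissue does not tell fewer cells of a type from less RNA per cell.

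Cacna1e, which encodes the pore of R-type channels in dendrites and presynaptic terminals, was at 12.9, 22.6 and 19.9 CPM in WT saline libraries and at 159, 94.2 and 81.3 CPM in WT ethanol libraries. It was at 99.0, 99.3 and 97.8 CPM in KO saline and at 11.7, 94.3 and 92.3 CPM in KO ethanol libraries. The WT saline libraries and 1 shallow KO ethanol library (7 counts) were low, and the other 8 lay at or above 81.3 CPM. The log2 fold change with ethanol in WT mice was 2.58 ± 0.55 (SE, adjusted p = 0.101, edgeR), and without WT ethanol replicate 1 it was 2.22 (adjusted p = 0.301).

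Cacnb2, a beta subunit that carries alpha1 subunits to the membrane, was at 10.3, 7.53 and 8.10 CPM in WT saline, 36.9, 28.1 and 17.8 in WT ethanol, 31.9, 28.8 and 19.0 in KO saline, and 6.69, 20.4 and 25.9 in KO ethanol libraries. Its pattern over libraries was that of Cacna1e, with no overlap of WT saline with WT ethanol or KO saline. The log2 fold change with ethanol in WT mice was 1.69 ± 0.46 (SE, adjusted p = 0.165, edgeR). The call was lost without WT saline replicate 2 (1.58, adjusted p = 0.344, edgeR) and without WT ethanol replicate 1 (1.41, adjusted p = 0.484, edgeR).

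Cacng4, a TARP, was at 18.0, 6.43 and 9.51 CPM in WT saline and at 34.8, 27.8 and 29.8 CPM in WT ethanol libraries. It was at 27.3, 20.1 and 19.8 CPM in KO saline and at 18.4, 17.2 and 21.3 CPM in KO ethanol libraries, which overlapped the highest WT saline library. The log2 fold change in WT mice was 1.49 ± 0.40 (SE, adjusted p = 0.165, edgeR), and 1.18 (adjusted p = 0.354) without WT saline replicate 2 and 1.38 (adjusted p = 0.443) without WT ethanol replicate 1.

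Scn9a, which encodes Nav1.7, a channel best known from peripheral sensory neurons, was at 4.63, 2.76 and 0.669 CPM (9, 15 and 9 counts) in WT saline libraries. It was at 31.0, 67.1 and 15.7 CPM in WT ethanol, 15.5, 25.7 and 18.0 CPM in KO saline, and 0, 17.8 and 30.4 CPM in KO ethanol libraries. The 0 stood in the shallowest library, where 3 counts would be 5.01 CPM. The log2 fold change in WT mice was 4.04 ± 0.91 (SE, adjusted p = 0.113, edgeR), and Scn9a was called in all 12 fits that left out 1 library. The 4 markers of peripheral sensory neurons summed to between 3.12 and 6.17 CPM in WT saline, 5.37 to 18.3 in WT ethanol, 4.10 to 6.58 in KO saline and 3.34 to 11.7 in KO ethanol libraries, and their part in the Scn9a values was not tested.

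Scn4b, the beta subunit linked to resurgent sodium current, was near absent from WT saline libraries, at 0, 0.367 and 0.817 CPM (0, 2 and 11 counts). It reached 1.87, 32.0 and 24.4 CPM in WT ethanol, 1.05, 0.410 and 4.94 CPM in KO saline, and 6.69, 3.47 and 14.7 CPM in KO ethanol libraries. WT ethanol replicates 2 and 3 stood far above replicate 1, and the groups of WT mice did not overlap. The fitted log2 fold change was 5.14 ± 1.20 (SE, adjusted p = 0.121, edgeR), and 4.91 (adjusted p = 0.308) without WT saline replicate 2.

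Scn1a, which encodes Nav1.1, the main sodium channel of fast-spiking inhibitory neurons, was at 35.0, 21.3 and 16.6 CPM in WT saline and at 51.7, 99.4 and 51.1 CPM in WT ethanol libraries. It was at 43.0, 64.9 and 69.9 CPM in KO saline and at 6.69, 74.9 and 83.7 CPM in KO ethanol libraries. The WT groups did not overlap, and the log2 fold change with ethanol was 1.49 ± 0.60 (SE, adjusted p = 0.228, edgeR), with a range of 1.05 to 1.79 over the fits that left out 1 library, of which 4 lost the call (WT saline replicates 2 and 3 and WT ethanol replicates 1 and 2, adjusted p = 0.394 to 0.519). Of the 6 inhibitory neuron markers, 5 had a log2 fold change above 0 with ethanol in WT mice and 1 below 0. Gad2, which was called, was at 60.2, 24.3 and 21.2 CPM in WT saline and at 104, 104 and 115 CPM in WT ethanol libraries (adjusted p = 0.131, edgeR). Lhx6 had a mean of 28.3 CPM in WT saline and 23.0 CPM in WT ethanol libraries. In KO ethanol replicate 1, Gad2 was at 53.5 CPM where Scn1a was at 6.69 CPM. The 6 inhibitory neuron markers summed to 231 to 408 CPM in WT saline, 432 to 561 in WT ethanol, 326 to 376 in KO saline and 326 to 440 in KO ethanol libraries, with 2 of the 6 called higher in WT ethanol, and their part in the Scn1a values was not tested.

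WT ethanol replicate 1, the library rich in Tcf7l2, set the values of Cacna2d2, Cacna1s and Scn7a. Cacna2d2, an alpha2delta subunit, was at 157 CPM there, against 29.5 and 24.3 CPM in the other WT ethanol libraries and 35.5, 10.3 and 10.3 CPM in WT saline libraries. Its log2 fold change fell from 1.96 (adjusted p = 0.208) to 0.57 (adjusted p = 0.695) without that library (edgeR). Without it Cacna1s went from 2.51 to -0.29 and Scn7a, which encodes the sodium-sensing channel Nax, from 2.15 to 0.52. Cacna1s had 0, 0.367 and 0.817 CPM in WT saline and 7.81, 0.527 and 0.371 CPM in WT ethanol libraries. Scn7a had 0, 0.184 and 0.743 CPM and then 4.30, 0.878 and 0.463 CPM. Both lost the call in several other fits that left out 1 library, and Cacna2d2 without WT saline replicate 2 or 3 as well (adjusted p = 0.446 and 0.333, edgeR). Cacna2d3 was called at an adjusted p of 0.268 (log2 fold change 1.00, edgeR), but 9 of the 12 fits that left out 1 library lost the call, and without WT ethanol replicate 2 (183 CPM, against 43.9 and 71.2) it was 0.16.

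**Figure D1:**
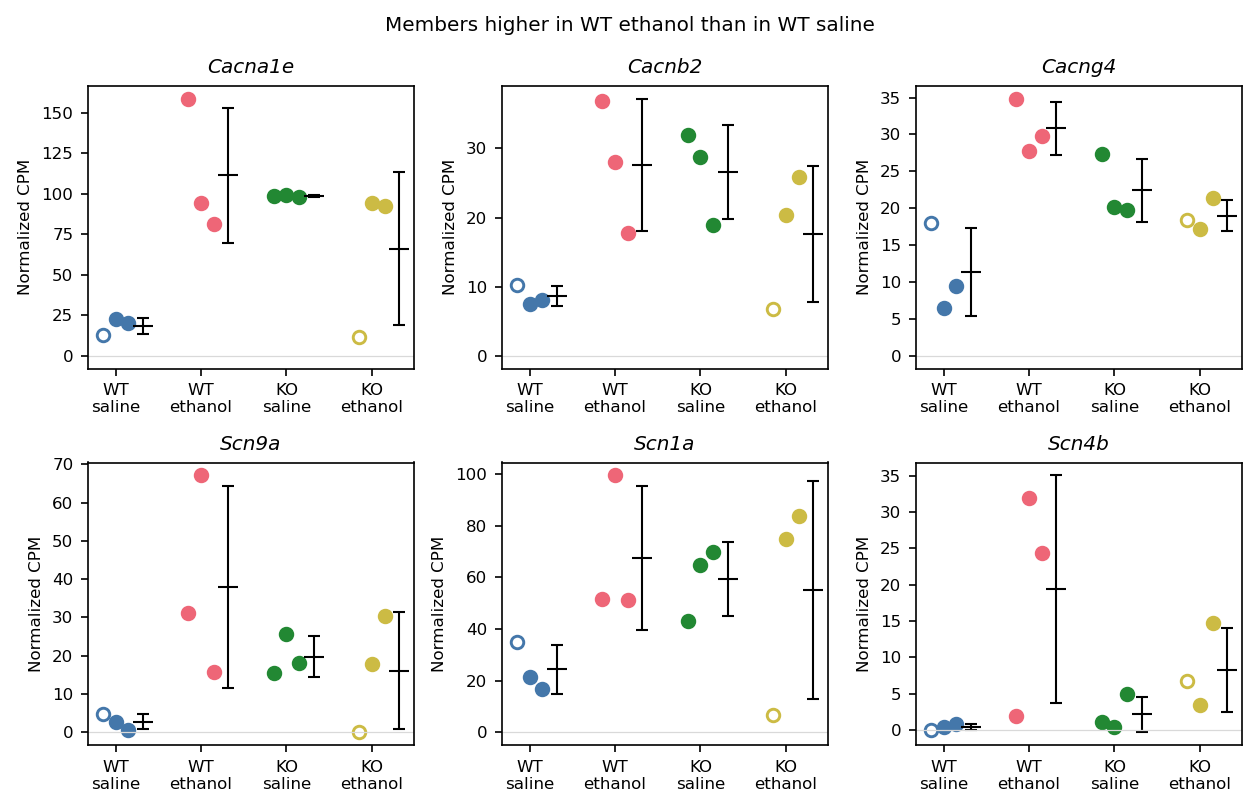
Normalized CPM per library of 6 members in the 4 groups. Points are libraries (open points are the 2 shallow libraries whose names begin with L), and the black marks beside them are the mean and SD of 3 libraries. WT saline lies below WT ethanol in all 6 panels without overlap, and the open KO ethanol point is low for Cacna1e, Cacnb2, Scn9a and Scn1a.

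Between KO and WT mice under saline, the members called at an adjusted p under 0.30 included pores and auxiliary subunits of calcium and sodium channels. Of the 37 members, 12 were higher in KO saline than in WT saline and none was lower at an adjusted p under 0.30, against 12.4% higher and 13.4% lower of all symbols. With edgeR none passed at an adjusted p under 0.05 (0.0543% of all symbols). An unadjusted p under 0.05 was found in 9 of the 37 members and in 2890 of all 14739 symbols. With DESeq2 3 passed at the adjusted level, and its share of all symbols there is not given. Without TMM scaling 22.9% of all symbols were called higher and 4.61% lower. The median log2 fold change was 0.81 over the members and 0.04 over all symbols, and 14 members had KO saline libraries all above WT saline libraries, as 12.9% of all symbols had. This comparison has the WT saline libraries in common with the ethanol comparison in WT mice, so the low values of those libraries enter both. Among the members called were Cacna1a, Cacna1b, Cacna1c, Cacna1e, Cacnb2, Cacnb4, Cacng4, Scn1a, Scn2a1, Scn2b and Scn9a.

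Cacna1e was higher by 2.40 ± 0.55 (SE, adjusted p = 0.147), Cacnb2 by 1.64 ± 0.46 (0.176), Scn9a by 3.10 ± 0.89 (0.176), Cacng4 by 1.03 ± 0.40 (0.196) and Scn1a by 1.31 ± 0.60 (0.247), log2 fold changes with adjusted p in parentheses, edgeR. Cacna1a, Cacna1b, Cacna1c, Cacnb4, Scn2a1 and Scn2b were not called with ethanol in WT mice, a contrast between the comparisons that was not tested, and of these Cacna1a, Cacna1b and Cacna1c are pore-forming subunits of P/Q-, N- and L-type channels.

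Scn2a1 was at 144, 173 and 159 CPM in WT saline and at 301, 348 and 222 CPM in KO saline libraries, with 208, 199 and 248 CPM in WT ethanol and 154, 218 and 183 CPM in KO ethanol libraries. The KO saline libraries were the highest, apart from an overlap of the lowest with WT ethanol, and the log2 fold change between genotypes under saline was 0.87 ± 0.32 (SE, adjusted p = 0.186, edgeR). After removal of the length and GC trend of each library it was -0.047. Cacnb4, a beta subunit of P/Q-type channels, was at 63.2, 79.0 and 64.3 CPM in WT saline, 55.0, 91.3 and 111 in WT ethanol, 163, 189 and 80.5 in KO saline, and 80.2, 73.4 and 69.6 in KO ethanol libraries. Only 2 of the KO saline libraries stood clear, and the log2 fold change was 1.06 ± 0.37 (SE, adjusted p = 0.179, edgeR). Over the alternative fits listed under the processing it ranged from 0.071 to 1.52.

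Cacna1c was at 52.4, 12.9 and 22.1 CPM in WT saline and at 66.8, 58.4 and 71.5 CPM in KO saline libraries, which did not overlap (log2 fold change 1.20 ± 0.48, SE, adjusted p = 0.206, edgeR). Cacna1a was at 106, 27.6 and 21.9 CPM in WT saline and at 109, 71.4 and 167 CPM in KO saline libraries, and its groups overlapped (adjusted p = 0.283, edgeR). Cacna1b overlapped likewise, at 108, 29.4 and 41.2 CPM against 107, 84.9 and 157 CPM (adjusted p = 0.291, edgeR). Scn2b, a sodium channel beta subunit, was at 21.6, 20.8 and 25.2 CPM in WT saline and at 46.2, 32.2 and 32.8 CPM in KO saline libraries (adjusted p = 0.292, edgeR). No member was called in this comparison without WT saline replicate 2, without KO saline replicate 1 or without KO saline replicate 2, and 6 were called without KO saline replicate 3 and 7 without WT saline replicate 3. The shares of all symbols called in these fits are not given here, so these counts cannot be set against them.

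**Figure D2:**
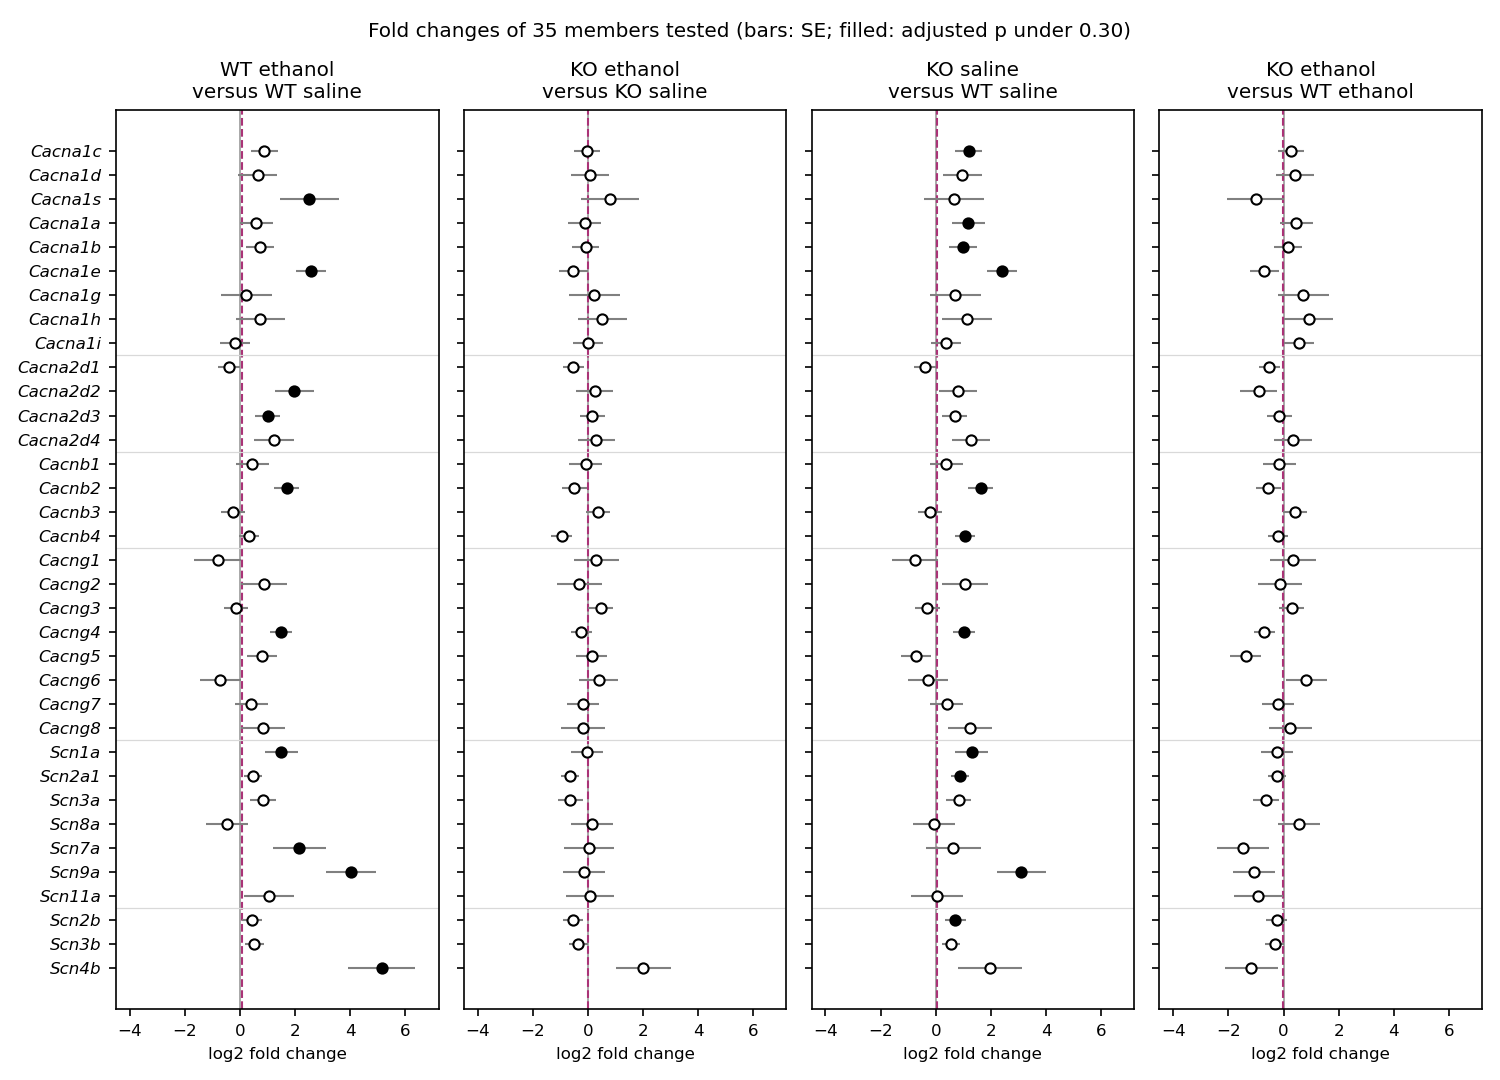
Log2 fold change (horizontal axis) of 35 members tested in 4 comparisons, with bars for the SE. Filled points passed an adjusted p of 0.30 (edgeR), and the dashed line is the median of all 14739 symbols. Called members lie to the right of 0 in the WT ethanol versus WT saline panel and the KO saline versus WT saline panel, and no member is filled in the other panels.

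In KO mice no member was called with ethanol (0 of 37, edgeR, and 0 with DESeq2), and no symbol at all was called at that level (0%). At an unadjusted p under 0.05 there was 1 member with edgeR, Cacnb4, and 3.15% of all symbols. With DESeq2 there were 3 members, and its share of all symbols at that level is not given here. Cacnb4 had a log2 fold change of -0.96 ± 0.37 (SE, adjusted p = 0.999, edgeR), and its 3 KO ethanol libraries lay below the 3 KO saline libraries. The gap was from 80.24 CPM (48 counts) in KO ethanol replicate 1 to 80.47 CPM in KO saline replicate 3. Such a lower position without overlap was found in 4 of the 37 members and in 1013 of 14739 symbols. The median log2 fold change over the members was -0.01, and 0.01 over all symbols. Under ethanol, KO and WT mice did not differ in any member at the adjusted level (0 of 37 with edgeR and with DESeq2, 0% of all symbols). At an unadjusted p under 0.05 there were 2 members with each tool, with edgeR Cacng5, a gamma subunit, among them. The share of all symbols was 3.24% with edgeR and is not given here for DESeq2. Cacng5 was at 58.3, 8.96 and 21.3 CPM in WT ethanol and at 11.7, 11.7 and 11.0 CPM in KO ethanol libraries, with the high value again in WT ethanol replicate 1. Cacnb4 and Cacng5 were named here after their values were seen. Both comparisons rest on KO ethanol replicate 1, whose 719735 counts make 3 counts worth 5.01 CPM.

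A difference of the ethanol effect between the genotypes (interaction of genotype and ethanol) was called at an adjusted p under 0.30 in 7 of the 37 members. All 7 had a lower effect in KO than in WT mice, against 5.43% lower and 5.64% higher of all symbols. With edgeR none passed at an adjusted p under 0.05, and 8 members had an unadjusted p under 0.05 (15.2% of all symbols). With DESeq2, 2 passed at an adjusted p under 0.05, and its share of all symbols there is not given. Without TMM scaling 11.1% of all symbols were called lower and 2.52% higher. Cacna1e, Cacnb2, Cacnb4, Cacng4, Scn2a1 and Scn9a were among the members called. The difference on the log2 scale was -3.11 ± 0.75 for Cacna1e, -4.17 ± 1.17 for Scn9a, -2.18 ± 0.63 for Cacnb2 and -1.72 ± 0.56 for Cacng4 (SE, adjusted p = 0.250 for each, edgeR). Cacna1e, Cacnb2, Cacng4 and Scn9a were called in all 3 of these comparisons, each of which contains the WT saline libraries. No member was called in the interaction without WT saline replicate 2, without WT ethanol replicate 1, or without KO saline replicate 1 or 2, 1 was without KO ethanol replicate 1 and 2 were without WT ethanol replicate 2. Shares of all symbols in those fits are not given here.

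The promoters of these members are shown where RefSeq windows (GRCm38.p6, 250 bases before to 50 after a transcription start, on the gene's strand, 5′ to 3′) matched them, because they were called in the same comparisons. The start nearest to that of the transcript with the highest count was taken. For Cacnb2 that transcript held 46.5% of the gene's counts, and a transcript with a different start held 38.7%. Capitals mark CG dinucleotides, of which a window of Cacna1e held 11, of Cacnb2 4 and of Scn9a 9, against a median of 7 over all 32851 windows.
Cacna1e promoter (chr1:154725871-154726170, minus strand): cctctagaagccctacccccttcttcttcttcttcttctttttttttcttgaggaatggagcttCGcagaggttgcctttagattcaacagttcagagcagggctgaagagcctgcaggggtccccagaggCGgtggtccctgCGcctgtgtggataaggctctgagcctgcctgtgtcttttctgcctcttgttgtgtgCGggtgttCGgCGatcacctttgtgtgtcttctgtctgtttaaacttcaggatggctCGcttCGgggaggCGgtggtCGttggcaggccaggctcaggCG
Cacnb2 promoter (chr2:14823842-14824141, plus strand): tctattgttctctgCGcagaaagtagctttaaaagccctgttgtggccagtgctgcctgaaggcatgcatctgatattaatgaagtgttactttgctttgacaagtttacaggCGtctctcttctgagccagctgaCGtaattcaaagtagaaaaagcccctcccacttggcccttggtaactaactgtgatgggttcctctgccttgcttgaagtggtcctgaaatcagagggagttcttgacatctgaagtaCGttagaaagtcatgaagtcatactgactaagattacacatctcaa
Scn9a promoter (chr2:66634913-66635212, minus strand): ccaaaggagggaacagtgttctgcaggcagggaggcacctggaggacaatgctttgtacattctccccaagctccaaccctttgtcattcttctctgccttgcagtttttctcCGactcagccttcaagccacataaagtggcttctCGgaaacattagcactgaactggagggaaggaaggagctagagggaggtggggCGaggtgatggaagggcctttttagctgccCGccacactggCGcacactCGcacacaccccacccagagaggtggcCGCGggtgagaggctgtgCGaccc
Of the 40 members, 30 matched a window. The motif GGGCGG, a GC box, was searched on both strands and was in 11 of these 30 windows (36.7%) and in 35.7% of all windows, and in none of the windows shown. TATAAA was in 2 of 30 (Cacna1d, Scn2a1) against 13.6% of all windows, CACGTG and TGACGTCA in 0 of 30 against 7.15% and 1.79%, and TGACGT, part of the last motif, in 1 of 30 (Cacnb2) against 7.51%. The p53 half-site (written by name here) was in 2 of 30 (Scn7a, Scn10a) against 8.36%, and a pair of p53 half-sites spaced by at most 13 bases was in 0 of 30 against 0.0731% of all windows. A match describes these letters only, and no match says only that they are not in the window.

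Several members without a call in WT mice were split within the WT saline group. Scn8a, which encodes Nav1.6, the sodium channel of mature axon initial segments, was at 358, 21.5 and 26.5 CPM in WT saline libraries, so that 1 library was the highest and 2 were the lowest of all 12. It was at 101, 108 and 81.7 CPM in WT ethanol, 137, 95.0 and 154 CPM in KO saline, and 134, 154 and 143 CPM in KO ethanol libraries. The high library was WT saline replicate 1, whose name begins with L.

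The T-type subunit Cacna1g was split likewise, at 184, 8.08 and 25.0 CPM in WT saline, against 115, 89.9 and 44.2 CPM in WT ethanol and 80.1, 59.9 and 209 CPM in KO saline libraries. Cacna1h, another T-type subunit, was at 82.3, 5.88 and 6.61 CPM in WT saline and 38.3, 68.2 and 45.8 CPM in WT ethanol libraries. Cacng2, the TARP known as stargazin, was at 29.8, 2.57 and 0.891 CPM in WT saline and 16.3, 17.7 and 21.2 CPM in WT ethanol libraries. In each of these the WT saline replicates 2 and 3 lay below every other library, except that KO ethanol replicate 1 was between them for Cacna1g (20.1 CPM).

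Over the 37 members tested, WT saline replicate 2 was the lowest library in 15, KO ethanol replicate 1 in 12 and WT saline replicate 1 in 9 (3 members had tied lowest libraries). WT saline replicate 1 was at the same time the highest in 7, and WT ethanol replicate 1 was the highest in 9. Without the 2 libraries whose names begin with L, 23 members were called higher and 1 lower in WT ethanol than in WT saline (16 at an adjusted p under 0.05), 24 were higher and 1 lower in KO saline than in WT saline (14 at that level), and 17 were called in the interaction, all lower. That fit also called 55.4%, 56.4% and 28.9% of all symbols in these comparisons at an adjusted p under 0.30. Its shares of all symbols under 0.05 are not given. In it Scn8a had a log2 fold change of 1.93 with ethanol in WT mice (adjusted p = 0.00667, edgeR). Cacna1h had 2.94 (0.00757), Cacna1g 2.24 (0.0284) and Cacng2 3.44 (0.00656), and the WT saline group was then 2 libraries. These members were singled out because WT saline replicate 1 lay far above the other WT saline libraries. A fit without that library restates the selection, so these p-values are no support for a difference. The member called lower was Cacng6 with ethanol (-1.08, adjusted p = 0.274) and Cacng5 in KO saline (-0.99, adjusted p = 0.223, edgeR).

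**Figure D3:**
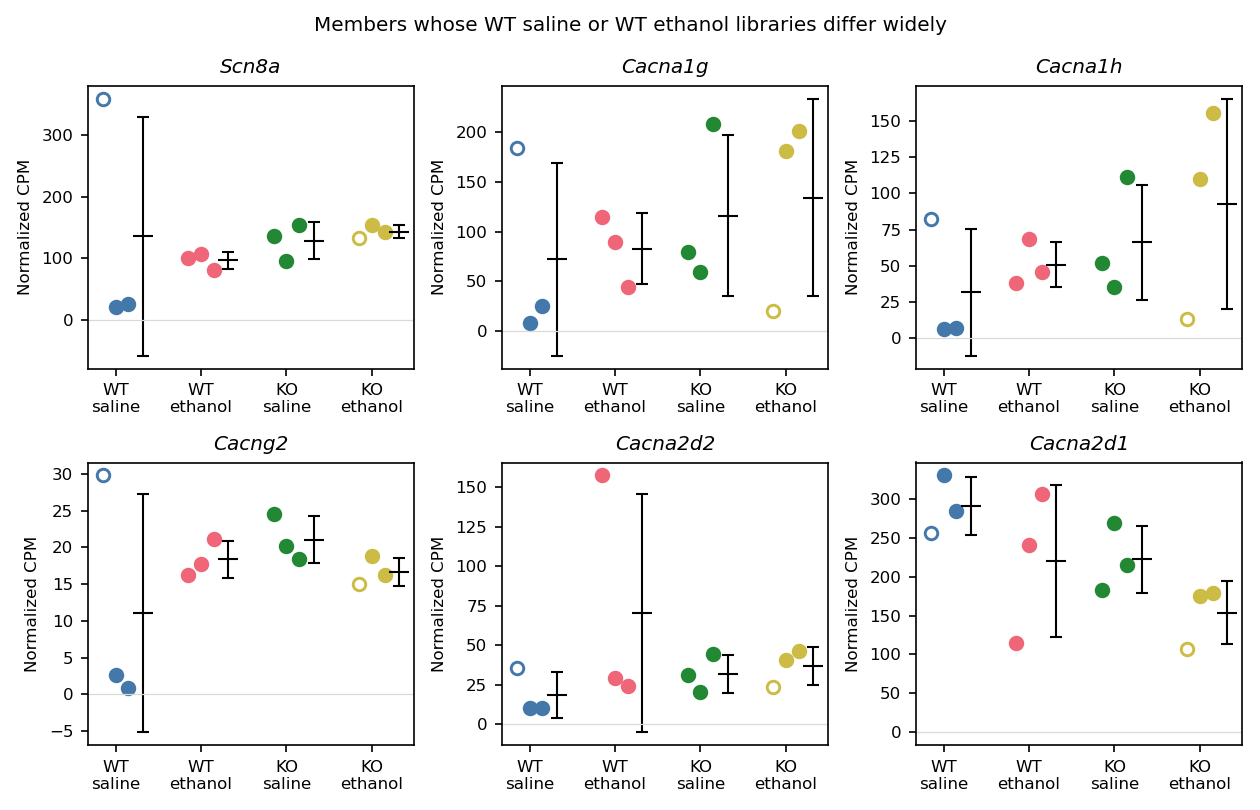
Normalized CPM per library of 6 members in the 4 groups, with the mean and SD of 3 libraries in black and the 2 libraries whose names begin with L as open points. For Scn8a, Cacna1g, Cacna1h and Cacng2 the open WT saline point lies far above the other WT saline points (358 against 21.5 and 26.5 CPM for Scn8a), and for Cacna2d2 1 WT ethanol library stands at 157 CPM.

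Among members with no call in any comparison, Cacna2d1, the alpha2delta subunit that binds gabapentin, was at 257, 331 and 285 CPM in WT saline, 114, 241 and 307 CPM in WT ethanol, 183, 269 and 215 CPM in KO saline, and 107, 176 and 179 CPM in KO ethanol libraries. It had the opposite sign to most members, with a log2 fold change below 0 with ethanol in WT mice (adjusted p = 0.598) and between genotypes under saline (adjusted p = 0.601, edgeR). Cacnb3 was at 290, 79.7 and 126 CPM in WT saline and at 133, 113 and 168 CPM in WT ethanol libraries (adjusted p = 0.777, edgeR). Scn3b was at 214, 162 and 194 CPM in WT saline and at 349, 239 and 230 CPM in WT ethanol libraries, which did not overlap, and at 267, 334 and 235 CPM in KO saline libraries (adjusted p = 0.409 and 0.375, edgeR). Scn3a, which encodes the Nav1.3 of immature neurons, was at 69.4, 72.9 and 33.3 CPM in WT saline and at 104, 124 and 84.0 CPM in WT ethanol libraries (adjusted p = 0.331, edgeR).

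Other subunits of the main brain set also missed the level in all 5 comparisons. Cacna1d was at 79.7, 9.74 and 12.3 CPM in WT saline, 44.4, 78.2 and 31.5 in WT ethanol, 52.6, 50.2 and 90.7 in KO saline, and 21.7, 82.3 and 95.6 in KO ethanol libraries. Cacna1i was at 108, 14.5 and 38.1 CPM in WT saline, 44.1, 50.9 and 44.4 in WT ethanol, 58.3, 43.5 and 106 in KO saline, and 71.9, 69.3 and 65.1 in KO ethanol libraries. Cacnb1, a beta subunit, was at 104, 8.45 and 45.2 CPM in WT saline, 82.7, 62.5 and 67.3 in WT ethanol, 72.6, 45.1 and 85.0 in KO saline, and 41.8, 76.7 and 70.7 in KO ethanol libraries. In these 3 the WT saline libraries spanned or overlapped the other groups, and replicate 2 was the lowest of all 12.

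Of the TARPs, Cacng3 was at 80.2, 22.8 and 41.7 CPM in WT saline, 34.9, 49.9 and 45.0 in WT ethanol, 34.4, 27.7 and 54.4 in KO saline, and 76.9, 48.9 and 38.1 in KO ethanol libraries. Cacng7 was at 6.17, 29.0 and 57.2 CPM in WT saline, 42.4, 34.8 and 48.5 in WT ethanol, 50.7, 29.7 and 43.4 in KO saline, and 13.4, 48.8 and 42.0 in KO ethanol libraries. The L libraries were the lowest for Cacng7 and the highest for Cacng3. Cacng8 was at 8.74, 2.20 and 23.0 CPM in WT saline, 25.8, 15.98 and 20.5 in WT ethanol, 34.7, 16.9 and 32.0 in KO saline, and 0, 34.3 and 33.4 in KO ethanol libraries, the 0 being in the shallowest library. The low members Cacna2d4, Cacng1, Cacng6 and Scn11a did not exceed 3.34, 3.09, 2.39 and 1.30 CPM in any library.

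Transcript length moved with these values, and its part in them was not tested other than by removing its trend. The median transcript length was 5803 bases over the 37 members tested and 2950 over the 14678 symbols tested with a known length, and 22 of the 37 fell in the longest of 5 equal bins of symbols (4856 bases or more). In that bin, 24.8% of all symbols were called higher in WT ethanol than in WT saline and 1.33% lower, with a median log2 fold change of 0.55, whereas in the shortest bin (up to 1665 bases) 3.13% were higher and 32.6% lower, with a median of -0.71. Of the 22 long members 8 were called higher, with a median of 0.88. In KO saline against WT saline the longest bin had 28.9% called higher and a median of 0.60, and 9 of the 22 long members were called, with a median of 1.02. In the interaction the longest bin had a median of -0.87 and 15.3% called lower, and 5 of the 22 long members were, with a median of -1.15. Across genes, which are not independent and share the same libraries, Spearman's rho of length with the log2 fold change was 0.23 over the members and 0.48 over all symbols with ethanol in WT mice.

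The mean transcript length weighted by counts moved with the libraries in the same way. It was 3328, 2245 and 2840 bases in WT saline and 2608 in KO ethanol replicate 1, and 3373 to 3831 in the other 8 libraries. Members made up 0.258%, 0.0719% and 0.124% of the counts in WT saline, 0.120% in KO ethanol replicate 1 and 0.219% to 0.327% in the other 8. The trend with length and GC content was then taken out of each library. In that fit 6 members were called higher with ethanol in WT mice (among them Scn9a, Cacnb2, Scn4b, Cacna1e and Cacng4). Called in KO saline against WT saline were 3 (Cacnb2, Cacna1e and Scn9a), and in the interaction 0. An unadjusted p under 0.05 in the interaction was found in 5 members, and the share of all symbols at that level is not given here. Of all symbols, that fit called 5.33% higher and 7.88% lower with ethanol in WT mice, 3.13% and 4.94% in KO saline against WT saline, and 0.0271% and 0.142% in the interaction. In that fit the members' median in WT mice was 0.17, against -0.19 over all symbols, and Cacna1e was higher by 1.43 (adjusted p = 0.170), Scn9a by 3.36 (0.109) and Cacnb2 by 1.62 (0.151, edgeR).

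**Figure D4:**
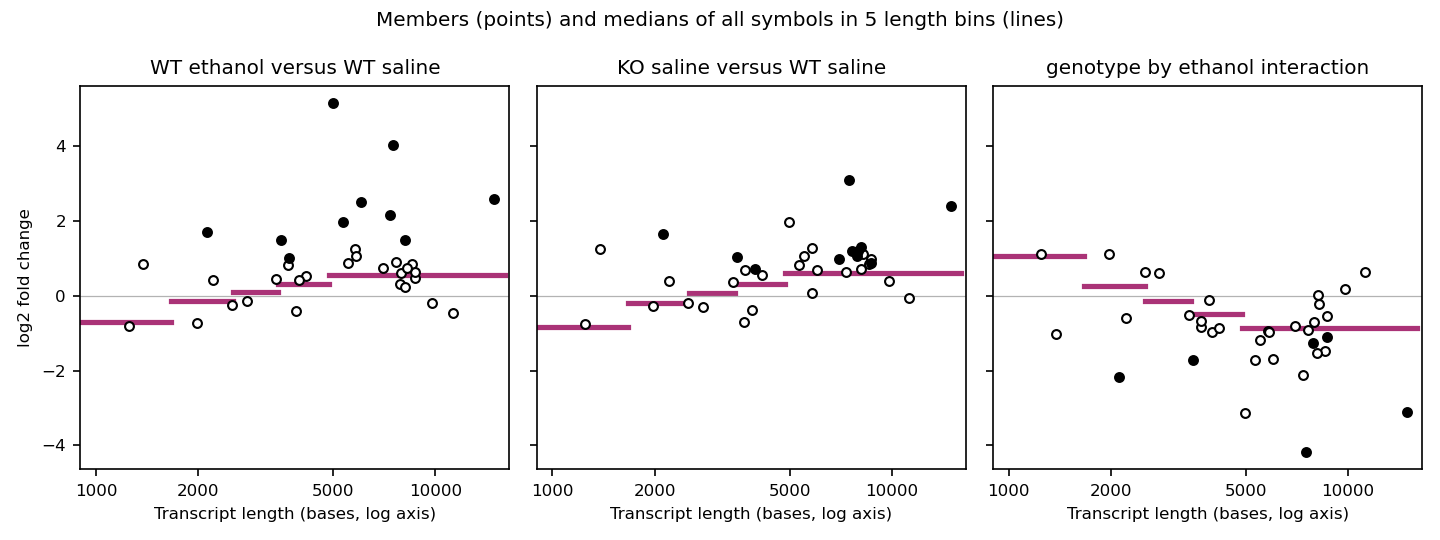
Log2 fold change against transcript length (log axis) for 35 members tested, filled where called at an adjusted p under 0.30. Lines are the medians of all symbols in 5 equal bins of length, which run from -0.71 to 0.55 with ethanol in WT mice (left), from -0.83 to 0.60 for KO saline against WT saline (middle) and from 1.05 to -0.87 in the interaction (right).

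The mix of neuronal sodium channel alpha subunits is a description within each library. It does not depend on the library's total, but the deposited RPKM appear quantile normalized, so a share can depend on that rescaling. Of the summed RPKM of Scn1a, Scn2a1, Scn3a and Scn8a, Scn2a1 took 48.9% ± 19.1 (SD, n = 3, as for the rest) in WT mice given saline and 49.6% ± 7.63 after ethanol, and 55.2% ± 6.70 and 45.5% ± 2.79 in KO mice. Scn8a took 52.1% in WT saline replicate 1 and 38.1% in KO ethanol replicate 1, and between 7.96% and 23.2% in the other 10 libraries. Scn3a took between 9.37% and 25.8% and Scn1a between 5.51% and 20.4%. The group means of Scn2a1 differed by less than the SD within WT saline.

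**Figure D5:**
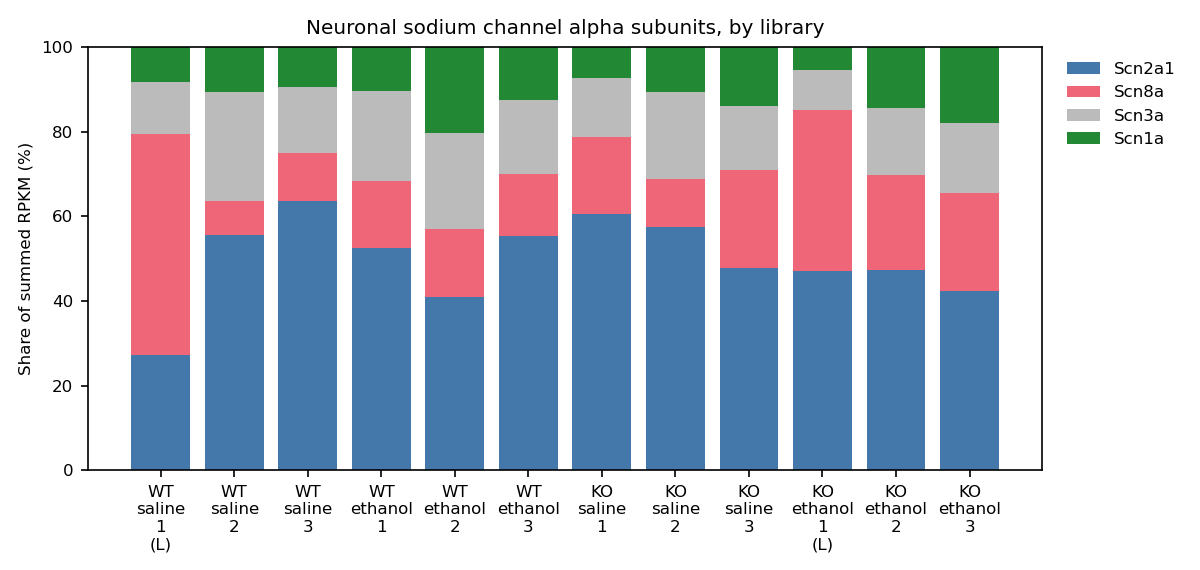
Share of the summed RPKM of 4 neuronal sodium channel alpha subunits (vertical axis, percent) in each of the 12 libraries, with (L) below the libraries whose names begin with L. Scn2a1 is the largest part in all libraries except WT saline replicate 1, where Scn8a takes 52.1%.

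In other families, Cacnb3 took the most of the beta subunits in every library, from 46.5% to 72.3%. Cacna2d1 took 70.0% ± 4.18 of the alpha2delta subunits in WT saline, above its share in every other library, against 41.3% ± 20.1 after ethanol in WT mice, and 50.3% ± 5.66 and 39.4% ± 4.80 in KO mice given saline and ethanol (SD, n = 3 each). Cacna2d3 took 22.2% ± 2.13, 37.2% ± 19.5, 39.6% ± 6.07 and 46.0% ± 9.75 in the same order, and Cacna2d2 reached 51.4% in WT ethanol replicate 1. Among the 10 alpha1 subunits, Cacna1e took 1.51% in WT saline replicate 1, 3.49% in KO ethanol replicate 1 and between 6.77% and 20.1% in the other libraries. Cacng7 and Cacng3 were the leading gamma subunits, with medians of 39.2% and 21.8%.

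Of 34 partners of these channels (scaffolds of the axon initial segment, calmodulin and its kinases, small G proteins, NALCN subunits and active zone proteins), 33 were tested, and 6 were called higher and 0 lower with ethanol in WT mice, 9 higher and 0 lower in KO saline against WT saline, and 2 lower in the interaction. Of all symbols, 12.1% and 12.4% were higher in the first and second of these and 5.43% lower in the interaction, where the partners' share (6.06%) was near that of all symbols. None was called in either of the other comparisons. Rims1, an active zone protein that tethers presynaptic calcium channels, was called in all 3, with log2 fold changes of 2.61 ± 0.40 (SE, adjusted p = 0.0303), 2.56 ± 0.39 (0.0376) and -3.08 ± 0.54 (0.140, edgeR). The median log2 fold change of the partners was 0.42 with ethanol in WT mice and 0.28 in KO saline against WT saline.

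Reads were assigned to RefSeq transcripts on mm10, and 10 of the 40 members overlap another gene in the files. Among called members these were Cacna1c (chr6:118587240-119196410, minus strand, with Dcp1b on the other strand), Cacna2d2 (chr9:107399880-107529344, plus strand, with Mir5120), Cacna2d3 (chr14:28904943-29721865, minus strand, with Lrtm1), Cacnb2 (chr2:14604306-14987909, plus strand, with Gm13315), Scn2b (chr9:45117876-45130071, plus strand, with Gm10684) and Scn9a (chr2:66480081-66634963, minus strand, with Gm13629). Whether the counting used strand is not given in the sources used here, so reads of such pairs cannot be told apart. Cacna1e (chr1:154392519-154725921, minus strand), with 1 transcript of 14921 bases, overlaps none. Scn1a, Scn2a1, Scn3a, Scn7a and Scn9a lie in 1 stretch of chromosome 2 and are similar in sequence, so some reads may have been divided among them.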

How the data were processed

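The 12 stranded libraries of total RNA from P7 somatosensory cortex fell into 4 groups of 3 taken from the labels. The authors filtered reads by quality score, aligned reads to mm10 using TopHat with Bowtie2, and estimated the level of each RefSeq transcript with Partek Flow. The deposited estimated counts hold fractions, since reads shared by transcripts were divided, and are not scaled. The deposited RPKM values are given for the same transcripts, and, once sorted, nearly coincide between libraries, as quantile normalization would give, a step the methods do not state. For Partek Flow, the version and the counting options are not given in the sources used here.

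Counts were summed per gene symbol and rounded. They were filtered with edgeR's default rule, scaled with TMM factors and fitted with edgeR 4.0.16 (R 4.3.3) with 1 mean per group over all 12 libraries, and tested with two-sided quasi-likelihood tests and Benjamini-Hochberg adjustment over 14739 symbols. Standard errors were derived from the F statistics. A call is an adjusted p under 0.30, the study's level. Intervals and floors (3 counts) cover counting error only. Genes named were the members called in any comparison, at most 10 of each by smallest p, and the main brain subunits, with the rest given by range. RefSeq lengths matched 99.1% of symbols and all 40 members. The scripts were tested on simulated data. The members, the partner and marker lists and the tests were chosen with earlier results of these data known.

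Alternatives were DESeq2 1.42.0, no TMM factors, other count filters (at least 1 count in any library, at least 10 in every library), the transcript with the highest count, limma 3.58.1 on log2(RPKM + 1) and log2(RPKM + 0.1), removal of each library's trend with length and GC content (by natural splines, 5 df each), the first letter of the library name as a covariate, libraries named with L left out, only the groups compared, and each library left out. Removal of the trend together with the L libraries was added after seeing the data. Other experiments of the study were not analysed here. Counts and medians cover all members, but values of some single genes are not reported here. Summaries used Python 3.11.15 with pandas 2.3.3, numpy 2.4.6 and scipy 1.17.1, and figures matplotlib 3.10.9.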

Additional observations from a re-analysis of the deposited data

Results flagged for a closer look

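The interaction test of genotype and ethanol (edgeR quasi-likelihood, adjusted p under 0.30 over 14739 symbols) picked out members whose ethanol effect was lower in KO than in WT mice. The difference between the log2 effects was -3.11 for Cacna1e, -4.17 for Scn9a, -2.18 for Cacnb2 and -1.72 for Cacng4 (adjusted p = 0.250 for each), -1.11 for Scn2a1 (0.287) and -1.27 for Cacnb4 (0.292). For Cacna1e, Scn9a and Cacnb2 the WT saline libraries and KO ethanol replicate 1 were low and the other 8 libraries were higher. For Scn2a1 and Cacnb4 the KO saline libraries held the highest values. No group had more than 3 libraries, so single libraries were not screened for outliers.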

How the results depend on the processing

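Of 30 calls of named members, DESeq2, no TMM factors and leaving out the L libraries kept all 30 in direction and past the threshold. Leaving out WT saline replicate 2 kept 3, KO saline replicate 1 kept 8 and KO saline replicate 2 kept 9. With ethanol in WT mice, where 11 members were called, 19 were called without TMM, 7 of only 20 tested with at least 10 counts in every library, 5 and 3 by limma on log2(RPKM + 1) and log2(RPKM + 0.1), 6 with the length and GC trend removed, 24 without the L libraries, 20 with both (16 higher and 4 lower), and 2 of 33 tested in a fit of only these groups. In the same fits 27.5%, 27.4%, 2.99%, 1.30%, 13.2%, 55.4%, 53.7% and 0.278% of all symbols were called. The median of the members was 0.17 with the trend removed and 1.32 without the L libraries. For KO against WT mice under saline (12 called) the counts were 4 and 0 by limma with the larger and the smaller pseudocount, 3 with the trend removed (median 0.22), 25 without the L libraries, 18 with both (15 higher and 3 lower) and 7 of 30 tested with only these groups, where 3.29%, 0.583%, 8.07%, 56.4%, 54.5% and 18.1% of all symbols were called. In the interaction (7 called) they were 2 and 0 by limma, 0 with the trend removed, 17 without the L libraries and 0 with the first letter as a covariate (0.719%, 0.00678%, 0.170%, 28.9% and 0% of all symbols), and the median was -0.48 by limma on log2(RPKM + 1), -0.031 with the trend removed and -0.29 with both. With the trend removed, the log2 fold change of Scn2a1 between genotypes under saline turned to -0.047, and to -0.096 without the L libraries too. Its interaction turned to 0.49 and 0.22, and that of Cacnb4 to 0.79 and 0.015. The cause was not tested.

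Leaving out each library in turn gave 2 (without WT ethanol replicate 1) to 23 (without WT saline replicate 1) called members and medians of 0.39 to 1.32 with ethanol in WT mice, 0 (without WT saline replicate 2 or KO saline replicate 1 or 2) to 23 (without WT saline replicate 1) and medians of 0.59 to 1.07 for KO saline against WT saline, and 0 to 21 (without WT saline replicate 1) and medians of -1.38 to -0.64 in the interaction. The shares of all symbols called in these fits are not given here, so the counts of called members cannot be set against them. Cacna1s ranged from -0.29 to 3.51. In KO mice with ethanol, and between genotypes under ethanol, no member was called under any of these alternatives. By counts in place of RPKM, the share of Scn2a1 was 42.1% in KO ethanol and that of Scn8a 19.9% in WT ethanol libraries. No paired analysis was possible because the labels' library numbers are not shared between groups. In the shallowest library 3 counts were 5.01 CPM, so lower levels were not detectable there, and the spread of the 3 WT saline libraries limits the 3 comparisons that contain them.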
